A study of Homo sapiens with 18 samples.

Results

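The 10 imprinted genes described here are H19, IGF2, MEG3, DLK1, PEG3, PEG10, CDKN1C, KCNQ1OT1, SNRPN and MEST, taken by symbol from the gene count table, where all 10 are listed among 28277 genes. OVCAR3-KRAB is the ovarian cancer cell line OVCAR3 with stable dCas9-KRAB, in which the KRAB repressor is joined to a Cas9 that cannot cut DNA and is brought to a promoter by a guide RNA (CRISPR interference). All cells carried dCas9-KRAB and a guide: sgCtl, the control guide against the Gal4 promoter, or sgXIST7 or sgXIST9 against the lncRNA XIST. Cells were grown in normoxia or held at 1% oxygen for 24 h (hypoxia), with 3 replicates in each of the 6 groups, so that 18 RNA-seq libraries were compared. The methods describe cells cloned by limiting dilution, so that a difference between guides cannot be told apart from a difference between clones. The question of the study was how OVCAR3 cells respond to XIST knockdown (KD) and to hypoxia.

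An imprinted gene is expressed mainly from the copy inherited from one parent, because DNA methylation set in the egg or sperm is copied through cell divisions. Imprinted genes lie in clusters that share a control region, and many act on fetal growth, the placenta and the nervous system. Imprinting is often lost or altered in tumors. The count table holds no allele, so that which parental copy gave the reads was not analysed here.

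Of the 10 genes, 4 (40.0%) passed the filter on low counts and could be tested, which were KCNQ1OT1, PEG10, SNRPN and MEST, against 52.8% of all genes listed. The other 6 were H19, IGF2, MEG3, DLK1, PEG3 and CDKN1C. Calls were made with edgeR's quasi-likelihood test over 14938 genes, at a Benjamini-Hochberg adjusted p below 0.01 and a change of more than 1 on the log2 scale in either direction. In hypoxia, KCNQ1OT1 was up-regulated in the sgCtl and sgXIST9 cells and MEST was up-regulated in the sgXIST9 cells. MEST was down-regulated in the sgXIST7 cells against both sgCtl and sgXIST9 in hypoxia. PEG10 and SNRPN were called in none of the 11 comparisons. Levels are given as counts or as CPM, counts per 1000000 after scaling of the library sizes, and a count of 3 in a library was taken as the detection floor.

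Total counts ranged from 11794375 to 24906936 per library, with a median of 17629433. XIST was measured at 479 ± 339 CPM in sgCtl, 0.161 ± 0.101 in sgXIST7 and 45.02 ± 13.87 in sgXIST9 in normoxia (SD, n = 3), and at 171 ± 68.0, 0.117 ± 0.131 and 23.3 ± 8.12 in hypoxia (SD, n = 3). Of 6 genes known to respond to hypoxia, 4 were called higher in hypoxia in sgCtl, 5 in sgXIST7 and 5 in sgXIST9. The shares of all genes tested that were called higher were 11.3%, 15.1% and 14.7%. The log2 fold changes of the 6 ranged from 0.17 to 5.33 in sgCtl, -0.56 to 6.55 in sgXIST7 and 0.59 to 6.99 in sgXIST9. Of 9 markers of ovarian epithelial cancer cells, 4 (PAX8, EPCAM, KRT8 and KRT18) were above the floor in every library, while KRT7, SOX17 and MECOM were at the floor in every group. Of 8 fibroblast markers, 3 or 4 were above the floor in every library of a group, with COL3A1 at 356 to 1060 CPM, while DCN, LUM, PDGFRA and PDGFRB had means of 0.363, 0.118, 0.199 and 0.0898 CPM. Of the 3 leukocyte markers, CD68 was at 10.8 to 55.8 CPM, and PTPRC and CD3E were at the floor. The hypoxia libraries numbered 3 had the fewest counts of their groups.

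MEST, the mesoderm specific transcript, encodes a protein of the alpha/beta hydrolase fold and is expressed from the paternal copy in fetal tissues of mesodermal origin. It lies on the plus strand of chromosome 7 from 130486175 to 130506465 in hg38. The counts add the reads of transcripts with several start sites, which is why the bases before a first and a later start are shown. Both are the 250 bases upstream of a RefSeq start (GRCh38.p14, plus strand), chr7:130485925-130486174 and chr7:130491835-130492084, with CpG sites, where DNA methylation occurs, in capitals.
MEST first start: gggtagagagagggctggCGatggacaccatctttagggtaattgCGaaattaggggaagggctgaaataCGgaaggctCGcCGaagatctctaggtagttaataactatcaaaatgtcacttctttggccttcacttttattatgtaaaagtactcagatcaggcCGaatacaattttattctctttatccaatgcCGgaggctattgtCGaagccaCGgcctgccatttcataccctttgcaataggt
MEST later start: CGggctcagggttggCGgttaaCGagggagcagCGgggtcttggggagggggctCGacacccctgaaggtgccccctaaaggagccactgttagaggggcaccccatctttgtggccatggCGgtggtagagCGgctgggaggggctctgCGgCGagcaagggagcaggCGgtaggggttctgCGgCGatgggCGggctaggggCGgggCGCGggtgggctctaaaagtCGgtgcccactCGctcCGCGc

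The first window held 9 CpG sites and the later one 20, against a median of 11 over 35116 windows of this length. Neither of them, nor the other 3 MEST windows, held ACGTG or GCGTG, the core letters bound by hypoxia-inducible factors, on either strand, which were found in 18.5% and 32.2% of all windows. RefSeq windows were matched for 4 of the 10 genes, H19, MEG3, SNRPN and MEST. Those of IGF2, DLK1, PEG3, PEG10, CDKN1C and KCNQ1OT1 were not matched.

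MEST had few counts in normoxia. In bulk RNA, fewer cells that express a gene and less RNA per cell cannot be told apart. The sgCtl libraries held 7, 2 and 6 counts in normoxia and 21, 28 and 9 in hypoxia. In sgXIST9, 7, 8 and 12 counts were found in normoxia and 60, 50 and 60 in hypoxia. In sgXIST7, the counts were 0, 3 and 0 in normoxia and 1, 0 and 0 in hypoxia. MEST thus reached its highest counts in the sgXIST9 cells in hypoxia, and no sgXIST7 library exceeded the floor at either oxygen level. It passed the filter on low counts only with the hypoxia libraries of sgCtl or sgXIST9, the groups where it was high. The shares of all genes set beside its calls as higher in hypoxia or lower in sgXIST7 do not allow for this.

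In CPM, MEST was at 0.323 ± 0.159 in sgCtl, 0.0555 ± 0.0962 in sgXIST7 and 0.479 ± 0.200 in sgXIST9 in normoxia, and at 1.17 ± 0.322, 0.0159 ± 0.0276 and 2.93 ± 0.777 in hypoxia (SD, n = 3). In the order of the group means, sgXIST9 in hypoxia stood above sgCtl in hypoxia, and this above sgXIST9 in normoxia, without overlap of their ranges. The 3 lower neighbouring pairs overlapped. In hypoxia, MEST was higher in sgXIST9 cells than in normoxia by a log2 fold change of 2.61 (SE 0.49, adjusted p 0.00023). Among the 4 genes tested, 2 were called higher in this comparison, against 14.7% of all genes tested that were called higher. In sgCtl the change in MEST was 1.83 (SE 0.56, adjusted p 0.011), which was not called. It was called without the sgCtl hypoxia library numbered 3 (2.02, adjusted p 0.0067), without the sgXIST7 normoxia library numbered 2 (1.83, adjusted p 0.0044) and by DESeq2 (1.88, adjusted p 0.0039).

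Between the clones in hypoxia, 1 count of MEST in sgXIST7 stood against 58 in sgCtl and 170 in sgXIST9. On the CPM scale, summed over libraries, the sgCtl level was 66.7 times that of sgXIST7 (95% exact interval 11.5 to 2680.0) and the sgXIST9 level 155.0 times (27.5 to 6170.0), intervals that cover counting error only. The fitted log2 fold change of sgXIST7 was -5.57 against sgCtl (SE 0.85, adjusted p 7.6e-05) and -6.86 against sgXIST9 (SE 0.78, adjusted p 1.1e-05), values that depend on the prior count. MEST was the only 1 of the 4 genes called in each of these comparisons. Of all genes tested, 6.19% were called lower in sgXIST7 than in sgCtl and 2.40% lower than in sgXIST9, and the libraries of 40.5% and 29.7% did not overlap. With a filter at a mean CPM of at least 1, MEST was not tested. The summed level of 8 fibroblast markers ranged in hypoxia from 747 to 1030.0 CPM in the sgCtl libraries, from 885 to 1300.0 in those of sgXIST7 and from 443 to 706 in those of sgXIST9, most of it from COL3A1, and its part in the MEST difference was not tested.

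Against sgCtl, MEST in the sgXIST9 cells in hypoxia had a log2 fold change of 1.29 (SE 0.45, adjusted p 0.038), which was not called. Its libraries did not overlap, as those of 33.7% of all genes. In normoxia, sgXIST7 differed from sgCtl by -2.62 (SE 0.85, adjusted p 0.035) and from sgXIST9 by -3.13 (SE 0.78, adjusted p 0.016), and neither was called. Without the sgXIST7 normoxia library numbered 2, which held the 3 counts, both were called (-5.62, adjusted p 0.0033, and -6.13, adjusted p 0.0022). The difference between the hypoxia responses of sgXIST7 and sgCtl was -2.95 for MEST (SE 1.57, adjusted p 0.24) and that of sgXIST9 and sgCtl 0.78 (SE 0.77, adjusted p 0.60). The exons of MEST share 7.147% of their bases with COPG2, a coat protein gene on the other strand. COPG2 was measured at 26.3 ± 2.19 CPM in sgCtl, 17.4 ± 3.69 in sgXIST7 and 25.3 ± 1.23 in sgXIST9 in normoxia, and at 7.08 ± 4.15, 7.26 ± 1.95 and 13.4 ± 5.13 in hypoxia (SD, n = 3), and was looked up after the MEST values were seen. The strand setting of the counting is not given in the sources used here, so that reads of these shared bases cannot be assigned.

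**Figure D1:**
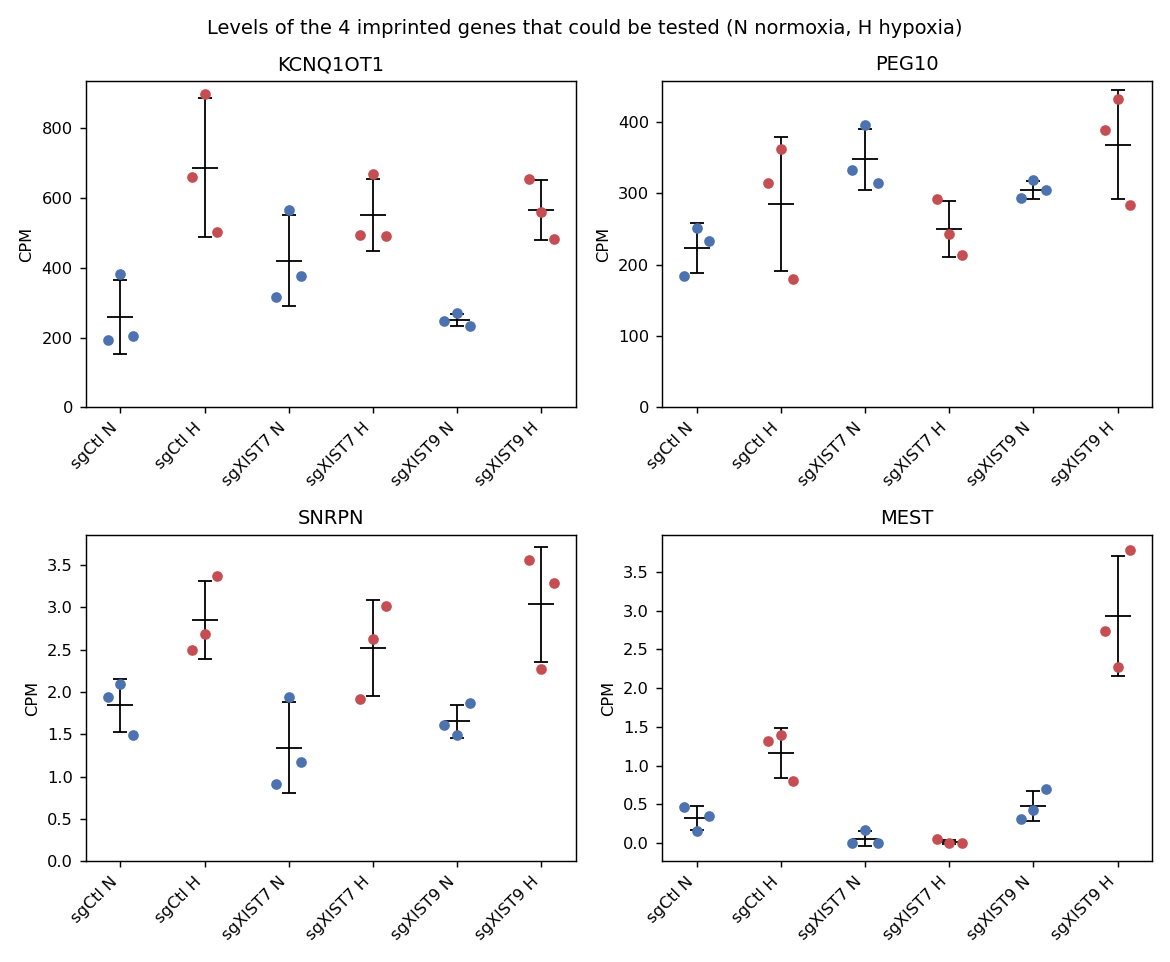
CPM of KCNQ1OT1, PEG10, SNRPN and MEST (vertical axes, each with its own scale) in the 18 libraries, by guide and oxygen level (N, normoxia, blue; H, hypoxia, red). Points are libraries and bars the mean ± SD (n = 3), and MEST reached 2.27 to 3.79 CPM in sgXIST9 in hypoxia against at most 0.167 CPM in any sgXIST7 library.

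KCNQ1OT1 is a long noncoding RNA that starts inside KCNQ1, on the opposite strand, is made from the paternal copy and is known to silence neighbouring genes, CDKN1C among them, on that copy. It lies on the minus strand of chromosome 11 from 2608328 to 2699998 (hg38) and is listed with 91671 exon bases. It had the most counts of the 10 genes, from 2865 to 18102 per library. The sgCtl libraries stood at 192, 382 and 205 CPM in normoxia and at 660, 898 and 503 in hypoxia. The sgXIST9 libraries stood at 247, 270 and 234 CPM in normoxia and at 656, 561 and 484 in hypoxia. In both clones every hypoxia library was above every normoxia library, while 54.9% of all genes in sgCtl and 65.9% in sgXIST9 had hypoxia and normoxia libraries that did not overlap. In sgXIST7 the levels were 317, 567 and 378 CPM in normoxia and 495, 670 and 490 in hypoxia, and the ranges overlapped.

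KCNQ1OT1 was up-regulated in hypoxia in sgCtl by 1.40 on the log2 scale (SE 0.27, adjusted p 0.00034), and in sgXIST9 by 1.18 (SE 0.26, adjusted p 0.0012). It was the 1 gene of the 4 called in sgCtl, where 11.3% of all genes tested were called higher. In sgXIST7 the log2 fold change was 0.39 (SE 0.26, adjusted p 0.21). The test of the difference between the responses of sgXIST7 and sgCtl gave -1.01 (SE 0.37, adjusted p 0.091) and did not pass, and that of sgXIST9 and sgCtl gave -0.22 (SE 0.37, adjusted p 0.77). In normoxia, sgXIST7 was at 420 ± 130 CPM against 260 ± 106 in sgCtl (SD, n = 3), with a log2 fold change of 0.69 (SE 0.26, adjusted p 0.071). This was called in 1 setting, without the sgCtl normoxia library numbered 2, which had the highest KCNQ1OT1 level of its group. In hypoxia the 3 clones stood at 687 ± 199, 552 ± 102 and 567 ± 86.1 CPM in sgCtl, sgXIST7 and sgXIST9 (SD, n = 3), with overlapping ranges. In the order of the 6 group means, each group overlapped its neighbour.

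KCNQ1, the potassium channel gene in which KCNQ1OT1 lies, had 1 count in all 18 libraries together. Its exons are in part also listed on an alternate contig. Of the genes listed in this way, 43.0% had no count in any library, against 17.4% of the genes listed on main chromosomes alone. Of the KCNQ1OT1 exon bases, 0.132% are shared with exons of a gene of the other strand. By the correlation of log2(CPM + 0.5) over 18 libraries, the genes most like KCNQ1OT1 included PLEKHM1P1 and SGK2, each with a Pearson r of 0.93. For MEST they included PRRT4 (0.91) and ZNF233 (0.88). These libraries share clones, oxygen levels and depth. Among the 10 genes themselves, r was 0.62 between KCNQ1OT1 and SNRPN, 0.58 between SNRPN and MEST and 0.31 between KCNQ1OT1 and MEST, over the same 18 libraries.

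PEG10 is a paternally expressed gene derived from a retrotransposon, whose proteins resemble retroviral Gag and Pol and which the placenta requires. It lies on the plus strand of chromosome 7 from 94656325 to 94669694 (hg38). Per exon length PEG10 had the highest level of the 10 genes, with group means from 33.6 to 55.5 CPM per kb, against 2.73 to 7.50 for KCNQ1OT1, 0.546 to 1.23 for SNRPN and 0.00501 to 0.923 for MEST. In normoxia the sgCtl libraries stood at 184, 251 and 233 CPM, sgXIST7 at 332, 396 and 314 and sgXIST9 at 293, 318 and 304. Every library of both KD clones was thus above every sgCtl library. The log2 fold change was 0.64 in sgXIST7 (SE 0.21, adjusted p 0.037) and 0.45 in sgXIST9 (SE 0.21, adjusted p 0.15), comparisons that share the sgCtl libraries, and neither was called. Of all genes tested, 45.5% in sgXIST7 and 53.9% in sgXIST9 had libraries that did not overlap with sgCtl in normoxia.

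In hypoxia, PEG10 was at 314, 361 and 180 CPM in sgCtl, at 291, 242 and 214 in sgXIST7 and at 388, 431 and 284 in sgXIST9. The lowest library of each group was the one numbered 3. Between hypoxia and normoxia the log2 fold change was 0.36 in sgCtl (adjusted p 0.17), -0.48 in sgXIST7 (adjusted p 0.059) and 0.27 in sgXIST9 (adjusted p 0.29), all from edgeR. The response of sgXIST7 differed from that of sgCtl by -0.83 (SE 0.30, adjusted p 0.083), and was called in 1 setting, without the sgCtl hypoxia library numbered 3. The start of PEG10 is 191 bases from that of SGCE, an imprinted sarcoglycan gene that is transcribed away from it. SGCE, singled out after its values were seen, stood at 14.9 ± 2.49 CPM in sgCtl, 23.9 ± 0.830 in sgXIST7 and 22.6 ± 0.389 in sgXIST9 in normoxia (SD, n = 3). Its log2 fold change was 0.67 in sgXIST7 (SE 0.14, adjusted p 0.0018) and 0.60 in sgXIST9 (SE 0.14, adjusted p 0.0051), under the threshold of 1. Over the 18 libraries, r between PEG10 and SGCE was 0.27.

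SNRPN encodes the small nuclear ribonucleoprotein SmN, a splicing factor component, from the paternal copy of the region altered in Prader-Willi syndrome. It lies on the plus strand of chromosome 15 from 24823608 to 24976416 (hg38). Of its exon bases, 54.45% are shared with other genes of the same strand, SNHG14 and SNURF, so that its counts are uncertain. The counts were 29, 27 and 26 in sgCtl, 21, 35 and 27 in sgXIST7 and 36, 28 and 32 in sgXIST9 in normoxia. In hypoxia they were 40, 54 and 38 in sgCtl, 40, 58 and 35 in sgXIST7 and 78, 50 and 52 in sgXIST9. In CPM the ranges of hypoxia and normoxia did not overlap in sgCtl and sgXIST9, as those of 54.9% and 65.9% of all genes tested. They overlapped in sgXIST7, where a normoxia library reached 1.94 CPM and a hypoxia library 1.91.

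The log2 fold change of SNRPN in hypoxia was 0.63 in sgCtl (SE 0.29, adjusted p 0.083), 0.91 in sgXIST7 (SE 0.29, adjusted p 0.013) and 0.87 in sgXIST9 (SE 0.28, adjusted p 0.015), none of them called. In sgXIST7 it was called without the normoxia library numbered 2 (1.25, adjusted p 0.0021) or without the hypoxia library numbered 1 (1.09, adjusted p 0.0077). In sgXIST9 it was 1.05 without the hypoxia library numbered 2 (adjusted p 0.0083). The differences between clones ranged from -0.46 to 0.10 at either oxygen level, with edgeR adjusted p-values from 0.31 to 0.82. SNHG14, the host transcript of the small nucleolar RNAs of this region, was singled out for its overlap with SNRPN after its values were seen. It stood at 67.1 to 73.6 CPM in the 3 clones in normoxia and at 76.2 to 116 in hypoxia, as group means, and was not called.

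**Figure D2:**
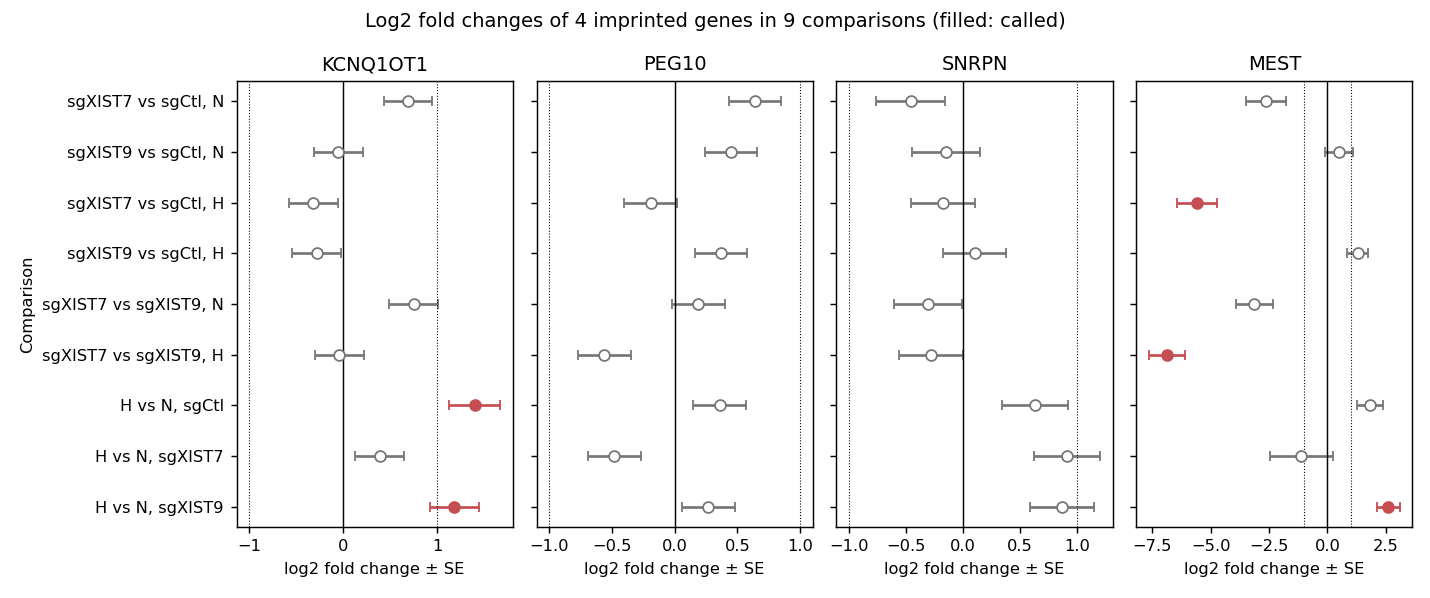
Log2 fold changes with their standard errors (horizontal axes, each gene with its own scale) of the 4 genes tested, in 9 comparisons (vertical axis; N, normoxia; H, hypoxia). Filled red points are called, the dotted lines mark a log2 fold change of 1 in either direction, and the called points are KCNQ1OT1 in hypoxia in sgCtl and sgXIST9 and MEST in 3 comparisons.

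In the comparisons with no gene of the 4 called, edgeR gave the following counts at an unadjusted p-value under 0.05. There were 3 for sgXIST7 and 1 for sgXIST9 against sgCtl in normoxia, where 32.4% and 32.3% of all genes tested had such a p-value. For sgXIST9 against sgCtl in hypoxia there was 1 (40.2% of all genes), for sgXIST7 against sgXIST9 in normoxia there were 2 (21.2%) and for hypoxia in sgXIST7 there were 2 (63.1%). For the responses of sgXIST7 and sgXIST9 compared with that of sgCtl there were 2 and 0, beside 26.7% and 21.5% of all genes. The shares of all genes that were called in these 7 comparisons, in the same order, were 7.76%, 7.70%, 9.53%, 3.40%, 27.3%, 1.52% and 1.01%. DESeq2 called none of the 4 in 6 of these 7 comparisons and MEST for sgXIST7 against sgXIST9 in normoxia. In hypoxia, the 4 genes had a median log2 fold change of 1.02 in sgCtl, -0.04 in sgXIST7 and 1.03 in sgXIST9, beside 0.02, 0.01 and 0.09 over all genes tested. MEST, 1 of the 4, passed the filter on low counts only with the hypoxia libraries of sgCtl or sgXIST9, where it was high. These medians do not allow for this and rest on few genes. For single genes, the exact permutation test on the 10 splits of 6 libraries cannot give a p-value under 0.10.

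The other 6 genes had at most 10 counts in any library. CDKN1C, the cyclin-dependent kinase inhibitor p57, is expressed from the maternal copy of 11p15.5 and restrains growth. It had 2 counts in the 9 normoxia libraries and 30 in the 9 hypoxia libraries. By library, the hypoxia counts were 0, 7 and 3 in sgCtl, 2, 5 and 0 in sgXIST7 and 3, 10 and 0 in sgXIST9, of which those numbered 2 held 22. Scaled by library size, the normoxia level was 0.0643 of that in hypoxia (95% exact interval 0.00746 to 0.254, counting error only). In an edgeR fit of every gene with a count, the lowest adjusted p-value for CDKN1C was 0.064, for hypoxia in sgXIST7. No call was made among 66 tests of the 6 genes in that fit, and 4 of them had an unadjusted p-value under 0.05, of which 2 were for CDKN1C and 2 for DLK1. Over all genes of that fit, 194 to 4116 were called per comparison, and the share with an unadjusted p-value under 0.05 is not given here. DESeq2 was run on the genes that passed the filter and not on these 6 genes.

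H19 is a maternally expressed noncoding RNA next to IGF2, the paternally expressed insulin-like growth factor 2, and both are regulated by a shared control region to which CTCF binds. H19 had 26 counts in the normoxia libraries and 28 in the hypoxia libraries, with the highest single counts of 10 in sgXIST9 in normoxia and 9 in sgCtl in hypoxia. It passed the floor in 6 of 18 libraries, which belonged to 5 groups, and no sgXIST7 normoxia library was above 2 counts. IGF2 had 4 counts in all, with none above 1 in any library, and 73.35% of its exon bases are shared with INS-IGF2 on the same strand. The exons of H19 and CDKN1C are also listed on an alternate contig, and how reads that match both places were counted is not given in the sources used here. Of the genes listed in this way with whole copies, 35.7% had no count in any library, against 17.4% of the genes listed on main chromosomes alone.

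DLK1, a paternally expressed transmembrane ligand related to the Notch ligands, and MEG3, a maternally expressed noncoding RNA, lie in the 14q32 cluster. DLK1 had 9 counts in all, which were 2, 1 and 2 in sgXIST9 in normoxia, 1, 1 and 1 in sgXIST9 in hypoxia and 1 in a sgCtl hypoxia library. MEG3 had 3 counts, with none above 1. PEG3, a paternally expressed zinc finger gene at 19q13, had 5 counts, with none above 1. IGF2, MEG3, DLK1 and PEG3 were at or under the floor in every library, as were 36.6% of all genes listed. No difference in these 4 genes was called at this depth, at which 3 counts correspond to 0.130 to 0.266 CPM. In the edgeR fit of every gene with a count, DLK1 in normoxia had an unadjusted p-value of 0.033 for sgXIST9 against sgCtl. For sgXIST7 against sgXIST9 it was 0.017, and the adjusted p-values were 0.17 and 0.19. Counts this low cannot settle whether DLK1 differed.

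**Figure D3:**
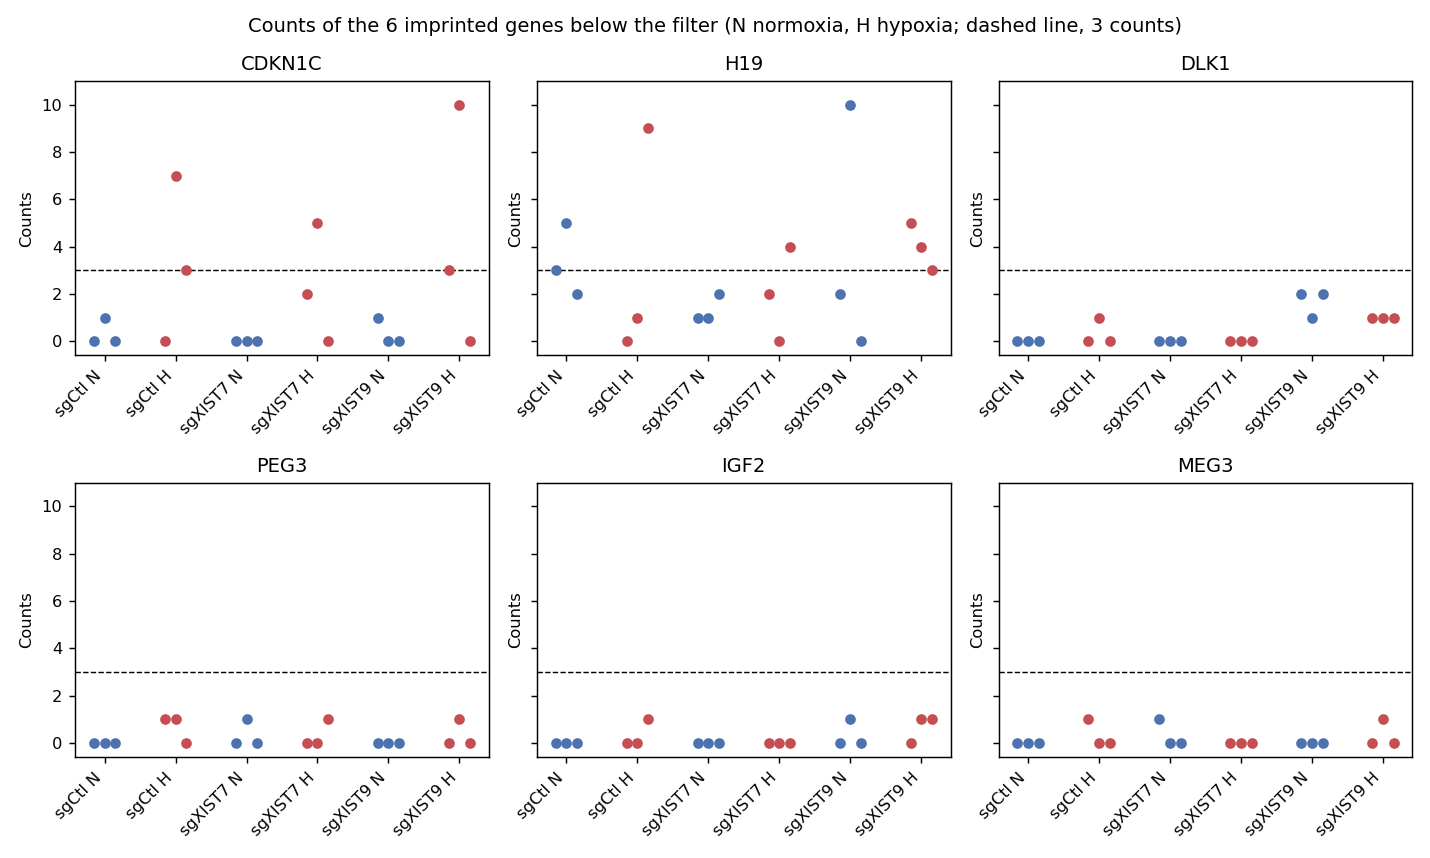
Counts (vertical axes) of CDKN1C, H19, DLK1, PEG3, IGF2 and MEG3 in the 18 libraries, by guide and oxygen level (N, normoxia, blue; H, hypoxia, red), where each point is a library and the dashed line is the floor of 3 counts. CDKN1C points above the line are hypoxia libraries, and DLK1, PEG3, IGF2 and MEG3 have no point above it.

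The wider family was followed with a list of 44 other imprinted genes, of which 43 are in the table and 21 (48.8%) were tested. Calls between the KD clones and sgCtl were all lower in KD. DIO3 passed the filter on low counts through sgCtl libraries only, so that a call against sgCtl could only be lower. KLF14 passed it through sgCtl and sgXIST9 libraries. In normoxia, 3 of the 21 were called lower in sgXIST7 (DIO3, GRB10 and KLF14), against 3.09% of all genes, and 2 in sgXIST9 (DIO3 and GRB10), against 3.77%. The same names were called in hypoxia, 3 in sgXIST7 against 6.19% of all genes and 2 in sgXIST9 against 3.39%. Over these comparisons the median of the 21 log2 fold changes lay between -0.24 and 0.10, beside -0.02 and -0.01 over all genes tested.

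GRB10 encodes an adaptor protein that dampens signaling from the insulin receptor, and its expressed copy depends on tissue and isoform. It stood at 16.4, 20.5 and 18.5 CPM in sgCtl, 2.94, 2.61 and 2.18 in sgXIST7 and 0.714, 1.43 and 1.11 in sgXIST9 in normoxia. In hypoxia it stood at 44.2, 49.1 and 44.9 CPM in sgCtl, 10.7, 9.20 and 10.2 in sgXIST7 and 7.29, 9.71 and 5.05 in sgXIST9. The sgCtl libraries were thus above all KD libraries at both oxygen levels, and each clone was higher in hypoxia. Libraries of sgXIST7 and sgXIST9 did not overlap with sgCtl for 45.5% and 53.9% of all genes in normoxia. In hypoxia the shares were 40.5% and 33.7%. In normoxia GRB10 was down-regulated by -2.84 in sgXIST7 (SE 0.23, adjusted p 8.8e-08) and by -4.10 in sgXIST9 (SE 0.25, adjusted p 2.6e-09) on the log2 scale. In hypoxia the log2 fold changes were -2.20 (SE 0.21) and -2.64 (SE 0.21).

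DIO3, a deiodinase that inactivates thyroid hormone, is expressed from the paternal copy at the far end of the 14q32 cluster of DLK1 and MEG3. It had 8, 8 and 10 counts in sgCtl in normoxia and 0 in all 6 KD libraries in normoxia. Against the floor of 3 counts per library, this puts the sgXIST7 level at least 4.05-fold lower and that of sgXIST9 at least 3.69-fold lower than sgCtl. In hypoxia the counts were 42, 41 and 6 in sgCtl, 3, 3 and 0 in sgXIST7 and 4, 3 and 0 in sgXIST9, with log2 fold changes of -3.96 (SE 0.72, adjusted p 0.00079) and -3.87 (SE 0.70, adjusted p 0.00099). The normoxia calls (adjusted p 0.0027 and 0.0034) were lost in sgXIST7 without its normoxia library numbered 1 or 3, and in sgXIST9 without any of its normoxia libraries or the sgCtl one numbered 3, with adjusted p-values up to 0.014.

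KLF14, a zinc finger transcription factor expressed from the maternal copy, lies 226088 bases from MEST on chromosome 7. It had 14, 15 and 16 counts in sgCtl, 6, 0 and 3 in sgXIST7 and 7, 11 and 0 in sgXIST9 in normoxia, and 27, 33 and 21, 4, 6 and 1 and 21, 27 and 32 in hypoxia. As for MEST, the sgXIST7 libraries were the lowest in hypoxia and did not overlap with the other clones. Between sgXIST7 and sgCtl the hypoxia libraries of 40.5% of all genes tested did not overlap, and between sgXIST7 and sgXIST9 those of 29.7%. Neither MEST nor KLF14 passed the filter on low counts through sgXIST7 libraries, which these shares do not allow for. The log2 fold change of KLF14 in sgXIST7 against sgCtl was -2.80 in normoxia (SE 0.70, adjusted p 0.0075) and -3.08 in hypoxia (SE 0.66, adjusted p 0.0014). In sgXIST9, KLF14 was up-regulated in hypoxia by 2.15 (SE 0.61, adjusted p 0.0063). The call in sgXIST7 in normoxia was lost in 8 of 26 alternatives (adjusted p up to 0.033), which left out any sgCtl normoxia library, the sgXIST7 normoxia library numbered 2 or 3, the sgCtl hypoxia library numbered 1, the sgXIST7 hypoxia library numbered 2 or the sgXIST9 normoxia library numbered 1. That of sgXIST9 was lost in 6 (adjusted p up to 0.028), among them without its normoxia library numbered 1 or 3 or its hypoxia library numbered 2 or 3. Over 18 libraries r between MEST and KLF14 was 0.71.

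Hypoxia calls among the 21 genes were all higher, 4 in sgCtl, 5 in sgXIST7 and 5 in sgXIST9, where 11.3%, 15.1% and 14.7% of all genes were called higher. GRB10, ZDBF2, PLAGL1 and HYMAI were called in each clone, NDN in sgXIST7 and KLF14 in sgXIST9. Without the hypoxia libraries numbered 3, 5, 6 and 6 genes were called, with DIO3 added in each clone and, in sgXIST9, PEG13 added and KLF14 lost. Among all 15278 genes tested in that setting, 3576, 4152 and 3750 were called in either direction. For the difference between the response of a KD clone and that of sgCtl, edgeR called 0 of the 21 genes in sgXIST7 and 0 in sgXIST9, with 7 and 4 at an unadjusted p-value under 0.05, beside 26.7% and 21.5% of all genes, while DESeq2 called 0 and 1 (GRB10). Without the hypoxia libraries numbered 3, 2 were called in sgXIST7 (ZDBF2 and PPP1R9A) and 2 in sgXIST9 (GRB10 and PPP1R9A). PEG13 and PPP1R9A are named here after their values were seen. The 21 genes had a median log2 fold change of 0.38, 0.49 and 0.61 in the 3 clones. ZDBF2, a paternally expressed zinc finger gene whose exons are also listed on an alternate contig, stood at 105 ± 2.40 CPM in sgCtl, 60.2 ± 6.90 in sgXIST7 and 53.6 ± 2.23 in sgXIST9 in normoxia and at 423 ± 151, 471 ± 102 and 312 ± 96.7 in hypoxia (SD, n = 3). Its log2 fold changes of 2.01 (SE 0.24), 2.97 (SE 0.24) and 2.54 (SE 0.24) were the largest among the called hypoxia changes in sgCtl and sgXIST7, and second to GRB10 (2.78, SE 0.25) in sgXIST9.

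PLAGL1, a zinc finger transcription factor with effects on the cell cycle, and HYMAI, a noncoding RNA of the same locus, are both expressed from the paternal copy on chromosome 6. In normoxia PLAGL1 stood at 21.3 to 23.3 CPM and HYMAI at 1.78 to 2.24, as group means, and in hypoxia at 62.3 to 84.8 and 5.56 to 8.13. PLAGL1 was up-regulated by 1.63 (SE 0.17), 1.86 (SE 0.17) and 1.55 (SE 0.17) and HYMAI by 1.87 (SE 0.30), 1.84 (SE 0.29) and 1.64 (SE 0.30) on the log2 scale in sgCtl, sgXIST7 and sgXIST9. Their r was 0.95 over 18 libraries. NDN, the paternally expressed growth suppressor necdin near SNRPN, was at 39.1 ± 4.15 CPM in normoxia and 99.2 ± 5.44 in hypoxia in sgXIST7 (SD, n = 3), by 1.34 on the log2 scale (SE 0.12, adjusted p 6e-08). In hypoxia it was at 55.6 ± 1.23 in sgCtl and 44.8 ± 5.32 in sgXIST9.

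**Figure D4:**
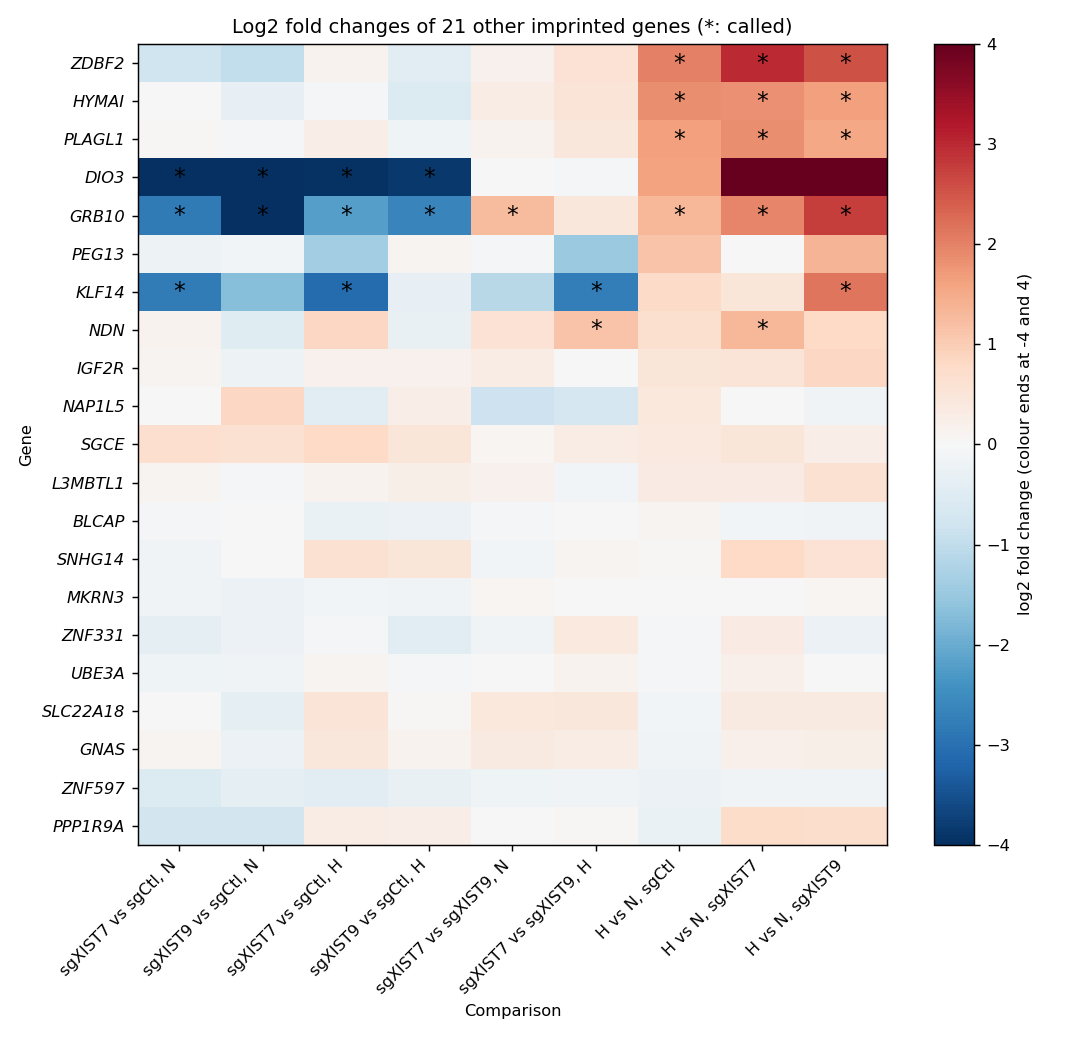
Log2 fold changes (color, cut at 4 in both directions) of the 21 other imprinted genes tested (rows) in 9 comparisons (columns; N, normoxia; H, hypoxia), with called values starred. DIO3 and GRB10 were lower in both KD clones at both oxygen levels, 4 genes were higher in hypoxia in each clone, and the dark unstarred DIO3 values are set against groups with 0 counts.

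In the list of 9 factors that set or keep imprints, 7 were tested. Among these, 2 were called lower in hypoxia in every clone, DNMT1, which copies DNA methylation after replication, and UHRF1, which recruits it, where 8.49%, 12.2% and 8.58% of all genes were called lower in sgCtl, sgXIST7 and sgXIST9. DNMT1 fell in sgCtl from 260 ± 5.39 to 127 ± 12.1 CPM, in sgXIST7 from 242 ± 17.97 to 71.2 ± 3.88 and in sgXIST9 from 238 ± 16.7 to 77.1 ± 1.48 (SD, n = 3). UHRF1 fell from 175 ± 5.85 to 52.4 ± 9.80 CPM, from 125 ± 6.88 to 19.3 ± 6.83 and from 133 ± 8.14 to 24.4 ± 8.57 (SD, n = 3). In hypoxia UHRF1 was lower in sgXIST7 than in sgCtl by a log2 fold change of -1.43 (SE 0.23, adjusted p 0.00014) and in sgXIST9 by -1.10 (SE 0.23, adjusted p 0.0015), the latter without a call in a fit of only the groups compared (adjusted p 0.041) and when the hypoxia libraries numbered 3 were left out (-0.95), or the sgCtl one numbered 2 (-0.94) or the sgXIST9 one numbered 3 (-0.86) alone. The DNMT1 call in sgCtl was lost without its hypoxia library numbered 1 (-0.96). In normoxia none of the 7 was called in either KD clone by edgeR or DESeq2, with 2 and 1 at an unadjusted p-value under 0.05 in edgeR. Of all genes tested, edgeR called 7.76% and 7.70% in these comparisons, and 32.4% and 32.3% had such a p-value. ZFP57, the zinc finger protein that guards methylated imprints, had 0 counts in every library, and CTCFL had at most 1. Whether exons of these 9 factors are also listed on an alternate contig, as those of H19 and CDKN1C are, was not looked up. The 0 counts of ZFP57 therefore do not show that it was silent.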

How the data were processed

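RNA was taken from OVCAR3-KRAB cells with sgCtl, sgXIST7 or sgXIST9 in normoxia or after 24 h at 1% oxygen, with 3 libraries in each of 6 groups. According to the methods, the authors extracted RNA with Trizol, made stranded libraries after ribosomal RNA depletion, used Trimmomatic for trimming, hisat2 for alignment to the hg38 build and featureCounts for counting per gene. What the authors deposited are raw counts in whole numbers, not normalized. Versions and the strand setting are not given in the sources used here. The table has 28279 lines, of which 2 broken ones with 0 counts were left out, and 5287 of the 28277 genes had no count.

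Counts were fitted with edgeR 4.0.16 (R 4.3.3) with its quasi-likelihood functions (glmQLFit, robust, then glmQLFTest), in 1 fit of the 6 groups with TMM normalization, filterByExpr (minimum count 10, minimum total 15) and a prior count of 0.125. The common dispersion was 0.0321. The Benjamini-Hochberg adjustment ran over 14938 genes. CPM were computed on TMM-scaled library sizes and divided by exon length where stated. Scripts were tested on simulated counts. The 10 genes and the other lists were chosen with earlier results of these data known. All 10 genes are named with their values, and of the other lists those called in a comparison, except where a gene is said to be singled out. The genes most like KCNQ1OT1 and MEST were the 3 with the highest Pearson r over the libraries, and some of these are not reported here. Alternatives were DESeq2 1.42.0, RLE and upper-quartile factors, 2 other filters, only the groups compared, a replicate block, an adjusted p-value under 0.05, each library left out, and the 3 hypoxia libraries numbered 3 left out. Nothing in the labels says that libraries of a number share a culture or day. The p-values measure the spread between these libraries, which a figure legend of the paper calls biological replicates. Libraries of the same number deviated together, each pair with a correlation of at least 0.100, in 3 of 9 comparisons of groups, which were sgXIST7 against sgCtl in normoxia (0.223 to 0.493), sgXIST9 against sgCtl in hypoxia (0.234 to 0.593) and hypoxia in sgCtl (0.100 to 0.124). Between the clones in hypoxia, the correlations were 0.416 to 0.593 for the libraries numbered 3. They were 0.234 to 0.349 for those numbered 1 and -0.111 to 0.554 for those numbered 2. No pair of libraries of a group agreed within counting noise.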

Additional observations from a re-analysis of the deposited data

Results flagged for a closer look

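Between the 2 KD clones, 4 of 25 imprinted genes tested passed the test of the difference between sgXIST7 and sgXIST9, which is set on 3 libraries each. In hypoxia these were 3, where 4.46% of all genes were called, and in normoxia 1, where 3.40% were called. MEST and KLF14, which are among the 3, passed the filter on low counts through libraries of sgCtl or sgXIST9 and not of sgXIST7. The share of 4.46% does not allow for this. MEST was lower in sgXIST7 in hypoxia by a log2 fold change of -6.86 (SE 0.78, edgeR adjusted p 1.1e-05), with 1 count against 170. KLF14 on the same chromosome was lower in sgXIST7 in hypoxia, by -2.77 (SE 0.66, edgeR adjusted p 0.0078), and this difference was not called in 14 of 26 alternatives, among them those that left out any hypoxia library of either KD clone (adjusted p up to 0.037). NDN was higher in sgXIST7 in hypoxia by 1.15 (SE 0.12, edgeR adjusted p 3.1e-06). GRB10 was higher in sgXIST7 in normoxia by 1.26 (SE 0.26, edgeR adjusted p 0.0044), at 2.58 against 1.09 CPM, both below the sgCtl level of 18.5 CPM, and this was not called with only the groups compared (adjusted p 0.016) or without the sgXIST7 normoxia library numbered 1 or 2 or the sgXIST9 one numbered 1 or 3 (adjusted p up to 0.039). Each guide stands for clonal cells, so that guide and clone cannot be told apart in these 4 differences.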

How the results depend on the processing

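The number of called genes among the 10 was counted as the same in 278 of 297 alternatives and as moved in 19. This number was also counted as the same where it rose from 2 to 3, for hypoxia in sgXIST9. With an adjusted p-value under 0.05 it was 1 in place of 0 for sgXIST7 in normoxia against either other clone and for sgXIST9 against sgCtl in hypoxia, and 2 in place of 1 for hypoxia in sgCtl, with MEST as the added gene. A mean CPM of at least 1, which MEST did not reach, gave 0 for sgXIST7 against sgCtl and against sgXIST9 in hypoxia and 1 for hypoxia in sgXIST9. Without the hypoxia libraries numbered 3, or by DESeq2, MEST was added in sgXIST7 against sgXIST9 in normoxia (1) and in hypoxia in sgCtl (2). With 1 library left out, the number ranged from 0 to 1 for hypoxia in sgXIST7, for its response minus that of sgCtl and for sgXIST7 in normoxia against either other clone, from 1 to 2 for hypoxia in sgCtl and from 2 to 3 for hypoxia in sgXIST9.

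The 53 named values kept their direction in all 1410 alternatives, and 45 lost and 15 gained a call. The calls of KLF14 and DIO3 rest on few counts, and that of DIO3 in normoxia was lost without some single KD libraries (adjusted p up to 0.014). With the replicate block, MEST in sgXIST7 against sgCtl in hypoxia was -5.58 (adjusted p 0.00012), and the block changed no call named here. Counts over all genes moved by over 1.5 times for the responses compared with sgCtl and for the clones in hypoxia. For the response of sgXIST7 these were 227 genes, 549 by DESeq2, 706 with an adjusted p-value under 0.05, 371 with the block, 79 with only the groups compared, 1288 without the hypoxia libraries numbered 3, and 84 to 1198 without 1 library, highest without the sgCtl hypoxia library numbered 3. For sgXIST9 they were 151, 371, 468, 203 with the block, 90, 822 and 57 to 725, and upper-quartile factors raised the share called higher from 65.6% to 75.7%. With only the groups compared, the counts in hypoxia fell from 2093 to 1113 for sgXIST7 and from 1423 to 641 for sgXIST9 against sgCtl, and from 666 to 323 between the KD clones, where it was 434 without the sgXIST7 hypoxia library numbered 2.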
